A study of Mus musculus with 8 samples.

Results

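The genes of WNT signaling were followed in the P3 mouse cortex after deletion of BAF155 and BAF170. They were taken by symbol: every protein-coding gene named as a Wnt ligand, a Frizzled receptor (Fzd), a secreted Frizzled-related protein (Sfrp1 to Sfrp5), a Dickkopf (Dkk1 to Dkk4) or an R-spondin (Rspo1 to Rspo4), together with Lef1, Tcf7, Tcf7l1, Axin1, Axin2, Lrp5, Lrp6, Ctnnb1, Apc, Nkd1, Notum and Lgr5. This gave 53 of the 48709 genes in the count files: 19 ligands, 13 receptors, 13 secreted modulators, 5 cytoplasmic components and 3 nuclear factors. The rule used no measured value. Sfrp3 carries the symbol Frzb in the annotation and was counted among the other pathway genes instead.

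RNA sequencing covered the cortex of 4 dcKO_hGFAP-Cre and 4 control mice at postnatal day 3, all on a C57BL/6J background. BAF155 (gene Smarcc1) and BAF170 (gene Smarcc2) are scaffolding subunits of the BAF (mSWI/SNF) chromatin remodeling complex. By the study's methods the mutants were BAF155 fl/fl; BAF170 fl/fl; Cre pos/+ and controls BAF155 fl/+; BAF170 fl/+; Cre pos/+, so that the 2 groups shared the transgene and at least 1 floxed copy of each gene, while the sample titles call the controls WT. The tissue is cortex in the labels and dorsal telencephalon (dTel) in the methods. hGFAP-Cre, a Cre recombinase driven by a human GFAP promoter, recombines in dTel radial glial progenitors and passes the deletion to their descendants, whereas endothelial cells, microglia and interneurons that enter the cortex come from other progenitors. The mutants die soon after birth.

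WNT ligands are secreted lipid-modified proteins that bind a Frizzled receptor and an Lrp5 or Lrp6 coreceptor. Binding holds back the Axin and Apc scaffold that marks β-catenin (Ctnnb1) for degradation, and β-catenin then acts in the nucleus with factors of the Tcf and Lef family. Other ligands act through Frizzled receptors without β-catenin, including on planar cell polarity. In the developing forebrain the cortical hem at the medial edge of the cortex is a source of WNT ligands, progenitors and neurons express others, and Wnt7a and Wnt7b also act on the vessels of the brain.

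Promoter sequence was available for 33 members. Shown here are the 250 bases before the RefSeq transcript start of Axin2, which is induced by β-catenin and rose in the mutants, of Wnt8b, which had the largest rise among the members, and of Fzd1, the risen member whose window held a Tcf/Lef motif. The build is GRCm38.p6, each is written 5′ to 3′ on the strand of its gene, and capitals mark the motif CTTTGA or its reverse complement TCAAAG, searched on both strands. The windows are chr11:108920099-108920348 on the plus strand for Axin2, chr19:44493222-44493471 on the plus strand for Wnt8b and chr5:4758217-4758466 on the minus strand for Fzd1.
Axin2: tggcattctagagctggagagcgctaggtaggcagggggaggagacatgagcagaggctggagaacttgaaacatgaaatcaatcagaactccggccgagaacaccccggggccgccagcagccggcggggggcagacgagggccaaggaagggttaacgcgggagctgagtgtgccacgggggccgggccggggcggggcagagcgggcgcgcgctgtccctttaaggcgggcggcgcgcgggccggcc
Wnt8b: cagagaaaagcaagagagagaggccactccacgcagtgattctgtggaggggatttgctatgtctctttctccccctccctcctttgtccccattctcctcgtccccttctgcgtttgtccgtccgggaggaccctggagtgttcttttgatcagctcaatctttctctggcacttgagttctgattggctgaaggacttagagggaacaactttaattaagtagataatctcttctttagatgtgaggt
Fzd1: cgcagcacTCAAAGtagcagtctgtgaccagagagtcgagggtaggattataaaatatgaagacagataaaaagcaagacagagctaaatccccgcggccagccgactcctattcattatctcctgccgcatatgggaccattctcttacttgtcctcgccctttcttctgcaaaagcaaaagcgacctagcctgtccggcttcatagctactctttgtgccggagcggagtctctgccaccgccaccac
The Axin2 window held 24 CpG dinucleotides at a GC content of 69.2%, the Fzd1 window 12 at 51.2% and the Wnt8b window 5 at 48.4%. Over all 41 windows of members the median was 22 CpG dinucleotides at 68.0% GC, against 6 at 52.4% over the 32851 windows of all genes. The motif lay in 5 of the 41 windows (12.2%) and in 4544 of all windows (13.8%). Among members that rose it was in 1 of 8 windows, and among those that fell in 2 of 11. A match of these letters is a description of the window and not evidence of binding.

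Total counts ranged from 21126713 to 32110285 per sample. Counts scaled to library size with TMM factors (CPM) of the deleted genes checked the labels: Smarcc1 was at 144 to 170.5 CPM in controls and 73.6 to 86.9 in dcKO_hGFAP-Cre samples, and Smarcc2 at 469 to 500.3 and 256 to 319, with transcript remaining in every mutant. Markers of cortical excitatory neurons were present in all samples, at a summed 1106 to 1193 CPM in controls and 591 to 732 CPM in mutants, and 4 of 5 fell. Markers of other cells and regions moved as well. Oligodendrocyte precursor markers fell for 5 of 5, endothelial markers for 3 of 6, microglial markers rose for 3 of 5, Cajal-Retzius markers for 3 of 5 and striatal markers for 3 of 6. Hippocampal markers (1 of 5 higher and 1 lower, summed 121 to 160.1 CPM in controls and 149 to 187 CPM in mutants) and meningeal markers (0 of 6 by edgeR, DESeq2 or limma-voom and 0 at an unadjusted p under 0.05, 32.1 to 106 and 14.97 to 161 CPM) showed no shared direction. The hippocampal list includes Lef1, which is itself a member. Mutant replicates 1 and 2 stood apart by their choroid plexus transcript, with Ttr at 584 and 1128 CPM against 0.0664 to 9.37 CPM in controls. Results were therefore also computed without these 2 samples. In bulk tissue, fewer cells of a type and less RNA per cell cannot be told apart.

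The 2 groups were compared to ask which WNT genes are expressed differently when the BAF complex is lost. Of the 53 members, 44 had enough counts to be tested, and 21 of these passed the quasi-likelihood test of edgeR (Benjamini-Hochberg adjustment over 16525 genes, threshold 0.05): 9 rose and 12 fell. That is 47.7% of the members tested, beside 37.5% of all genes tested. Of all genes 18.6% were higher and 18.9% lower. In each of these 21 members the 4 mutant samples lay entirely above or entirely below the 4 controls. As the test chose these 21, this adds little to their calls. Of the 44 members tested, 22 were separated in this way, the 21 and Lrp5, beside 34.4% of all genes tested. For a single gene such a separation gives the smallest p that 4 samples against 4 allow in a two-sided exact permutation test, 0.0286.

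The members' estimates differed in either direction more than they shifted as a group. Their median log2 fold change was 0.01 (all genes 0.02), and the median of its absolute size was 0.52 (all genes 0.29). These sizes were not matched for expression level. Low counts widen such estimates, and 5 of the members tested had a control mean under 1 CPM. The part of counting error in the larger size was not tested. Ligands divided into 3 that rose and 4 that fell of 13 tested, receptors into 2 and 3 of 13, secreted modulators into 3 and 2 of 10, cytoplasmic components into 1 and 2 of 5, and nuclear factors into 0 and 1 of 3. Scaling by library totals instead of TMM moved the median of all genes to 0.15 and the members' count to 13 higher and 8 lower. Without mutant replicates 1 and 2 together, 8 members were higher and 7 lower.

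**Figure D1:**
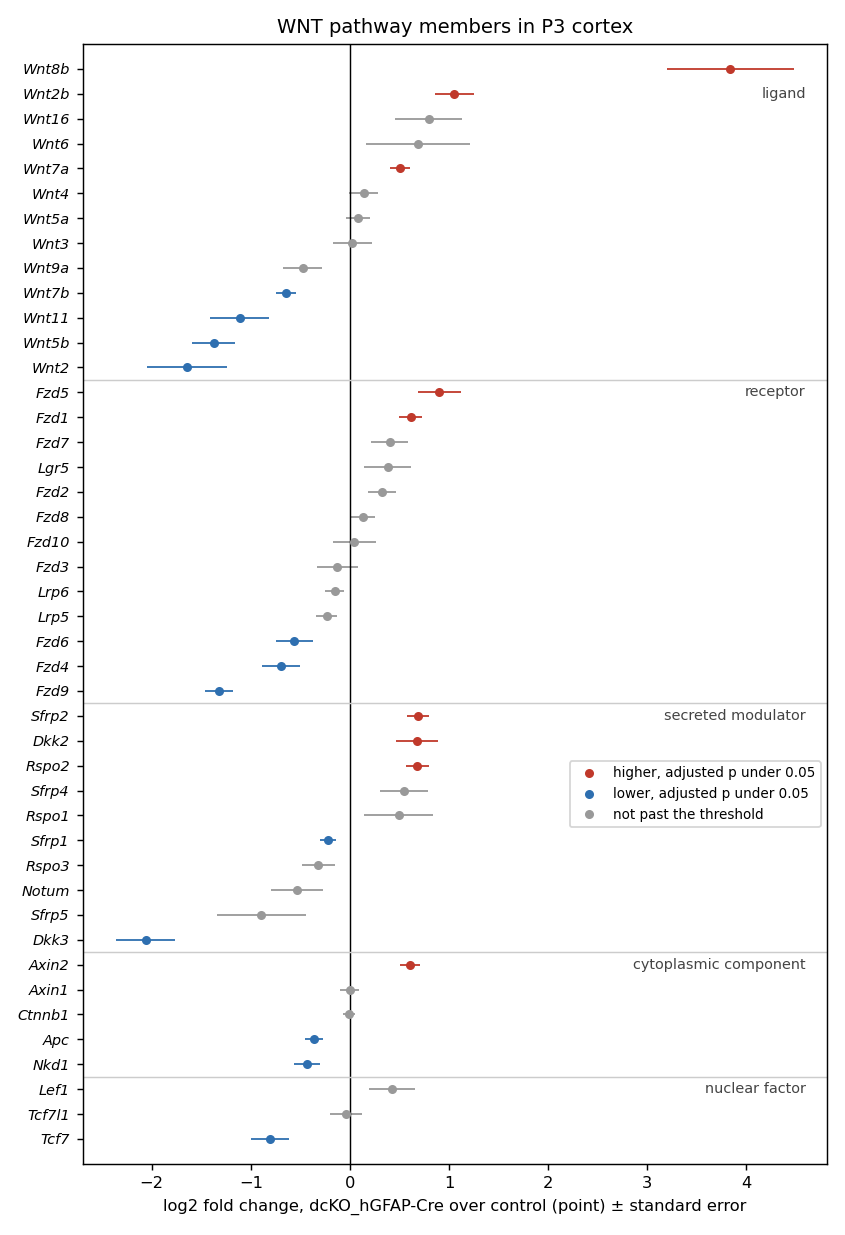
Log2 fold change of each of the 44 tested members, dcKO_hGFAP-Cre over control (x axis; bars, standard error), grouped by role from ligands at the top to nuclear factors at the bottom. Red points are the 9 members that rose, blue points the 12 that fell and grey points the 23 that did not pass an adjusted p of 0.05. Wnt8b is farthest to the right at 3.84 and Dkk3 farthest to the left at -2.06.

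Wnt7b, a ligand made by cortical neurons, lay on chr15:85535437-85582473 (GRCm38, ENSMUSG00000022382) and was the most abundant ligand per length in the 2 groups. Its CPM were 126, 110.2, 139.5 and 135 for controls 1 to 4, against 69.6, 83.3, 93.3 and 81.1 for mutants 1 to 4. Every mutant lay below every control, and Wnt7b fell by 0.64 on the log2 scale (SE 0.10, adjusted p = 4.71e-04 by edgeR). Wnt7a, its close paralog and a ligand of cortical progenitors, went the other way. Its CPM were 23.4, 26.1, 25.8 and 21.4 in controls and 35.7, 37.5, 31.6 and 32.5 in mutants, with all 4 mutants above the controls. The log2 fold change of Wnt7a was 0.51 (SE 0.10, adjusted p = 0.00184).

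Levels of different genes were compared per length, as CPM per kilobase of exon (RPKM). The level of Wnt7b was 26.1 ± 2.65 (mean ± SD, n = 4) in controls and 16.7 ± 1.99 in mutants, and that of Wnt7a was 7.62 ± 0.693 and 10.8 ± 0.859. Wnt7b made up 59.02 ± 3.53% (SD) of the summed level of the 19 ligands in controls and 43.95 ± 4.28% in mutants. Wnt7a made up 17.3 ± 1.90% and 28.5 ± 2.31%. The ratio between these paralogs was therefore smaller in the mutants although Wnt7b stayed first and Wnt7a next in each group. Wnt4, a ligand known from kidney and gonad development, was next at 2.42 ± 0.461 and 2.66 ± 0.235. In controls its samples overlapped with those of Wnt5a, the following ligand in that order, and in mutants they did not. Summed over all ligands, the level was 41.3 to 48.6 in controls and 36.4 to 39.5 in mutants, without overlap. Wnt7b was the largest part of this sum and fell, whereas Wnt7a rose. The lower sum therefore does not show a fall of the other ligands. Markers of cortical excitatory neurons moved with Wnt7b, among them Neurod6 (378 to 434 CPM in controls, 83.8 to 133 in mutants) and Emx1 (32.8 to 53.7 and 8.08 to 13.1), while Tbr1 (182 to 193 and 165 to 237) did not pass the test (adjusted p = 0.594, edgeR). None of the 5 was at 0. Their part in the lower Wnt7b was not tested.

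Wnt8b, a ligand of the hem, the hippocampal primordium and the diencephalon, had the largest fold change. Its reads numbered 6, 0, 0 and 1 in the controls and 34, 26, 23 and 32 in the mutants, or 0.276, 0, 0 and 0.0347 CPM and 1.45, 1.10, 0.785 and 0.966 CPM. All mutants lay above all controls, and 2 of the 4 controls had no read. The fitted log2 fold change of 3.84 (SE 0.64, adjusted p = 7.17e-04, edgeR) rests on 7 control reads in all, so its size is uncertain: it ranged from 3.36 to 5.96 when single samples were left out, the highest being without control replicate 1. Even in the mutants Wnt8b remained low, at 0.309 ± 0.0813 RPKM.

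Wnt2b, expressed in the cortical hem, was the other low-level ligand that rose. Its CPM were 2.53, 2.46, 2.26 and 1.94 in controls and 4.79, 4.36, 3.65 and 6.19 in mutants, again with no overlap, at a log2 fold change of 1.05 (SE 0.19, adjusted p = 0.00133). Mutant replicate 4 was the highest for Wnt2b. Wnt3a, the ligand by which the hem is often recognized, was too low to test, at 3, 0, 1 and 1 reads in controls and 2, 6, 1 and 8 in mutants. Wnt5a, present in the hem and elsewhere, was at 14.7 to 17.7 CPM in controls and 13.7 to 18.9 in mutants and did not pass the test (log2 fold change 0.08, adjusted p = 0.649).

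Several markers of choroid plexus, midbrain, thalamus and Cajal-Retzius cells rose beside Wnt8b and Wnt2b, although the thalamic list was split. Of 6 choroid plexus markers Clic6 and Otx2 rose, and the summed level of the list was 2.89 to 12.6 CPM in controls and 6.97 to 1172 CPM in mutants. Otx2, also a midbrain gene, was at 8.55, 13.6, 3.07 and 3.95 CPM in the mutants against 0.0694 to 0.276 in controls, so that every mutant was above every control. Of 4 midbrain markers Pou4f1 alone had enough counts to be tested and rose, at 3.08, 4.41, 2.73 and 3.02 CPM in the mutants (0.104 to 0.276 and 3.14 to 4.87 CPM summed). Of 5 thalamic markers Gbx2 and Lhx9 rose while Rora and Prkcd fell (104 to 119 and 94.9 to 132 CPM summed). Of 5 Cajal-Retzius markers Trp73, Lhx1 and Lhx5 rose (239 to 419 and 332 to 441 CPM summed). No marker of these lists was at 0 in every sample. Mutant replicate 4 had Ttr at 1.72 CPM, inside the control range, with 0.966 CPM of Wnt8b and 6.19 CPM of Wnt2b. Without replicates 1 and 2 the log2 fold changes were 3.55 (adjusted p = 0.0154) for Wnt8b and 1.11 (adjusted p = 0.0159, edgeR) for Wnt2b. The part of the choroid plexus, midbrain, thalamic and Cajal-Retzius transcripts in these values was not tested.

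**Figure D2:**
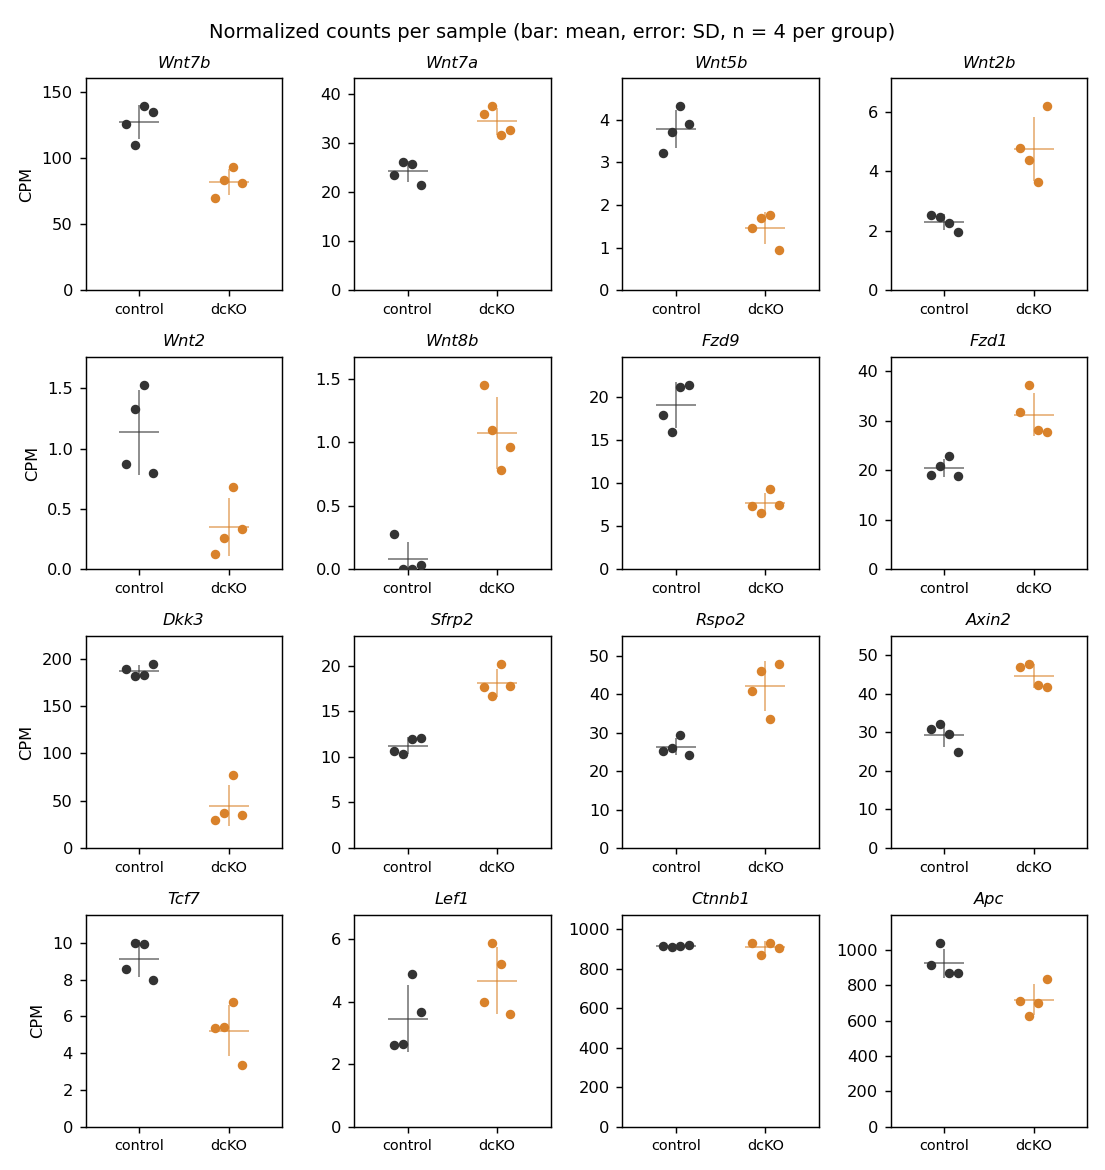
Normalized counts (CPM, y axis, from 0) of 16 members in each of the 4 control (dark) and 4 dcKO_hGFAP-Cre (orange) samples; the horizontal mark and bar give the mean and SD of each group. The groups do not overlap for Wnt7b, Wnt7a, Wnt5b, Wnt2b, Wnt2, Wnt8b, Fzd9, Fzd1, Dkk3, Sfrp2, Rspo2, Axin2, Tcf7 and Apc, and they overlap for Lef1 and Ctnnb1.

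Wnt5b, Wnt2 and Wnt11 fell with Wnt7b. Wnt5b, which usually signals without β-catenin, was at 3.22, 3.70, 4.32 and 3.89 CPM in controls and 1.45, 1.69, 1.77 and 0.936 CPM in mutants. The mutants were all lower and replicate 4 was lowest, at a log2 fold change of -1.38 (SE 0.22, adjusted p = 4.95e-04). Wnt2 was at 0.874, 1.33, 1.53 and 0.798 CPM in controls and 0.128, 0.254, 0.682 and 0.332 CPM in mutants. The highest mutant, replicate 3, came close to the lowest control, and the log2 fold change was -1.65 (SE 0.41, adjusted p = 0.00761, edgeR). Wnt11, a ligand of convergent extension movements, was at 0.598, 0.690, 0.730 and 0.972 CPM in controls and 0.257, 0.424, 0.307 and 0.392 CPM in mutants, with a log2 fold change of -1.11 (SE 0.30, adjusted p = 0.0110). Wnt2 and Wnt11 were low throughout and lost the call without mutant replicates 1 and 2 together, at adjusted p = 0.0851 for Wnt2 and 0.0785 for Wnt11.

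The remaining 6 tested ligands did not pass the test. Wnt3, Wnt4 and Wnt5a had log2 fold changes of 0.02, 0.14 and 0.08, with standard errors of 0.19, 0.15 and 0.12. Wnt9a (-0.48, SE 0.20), Wnt16 (0.80, SE 0.34) and Wnt6 (0.69, SE 0.52) had larger estimates with wider errors. Wnt16 was called higher under scaling by library totals and without mutant replicate 3. Wnt9a was called lower without control replicate 1 (adjusted p = 0.0420, edgeR). The ligands Wnt1, Wnt3a, Wnt8a, Wnt9b, Wnt10a and Wnt10b were not tested for lack of reads, and with Dkk1, Dkk4 and Rspo4 they had between 0 and 15 reads in any sample. By total counts, without TMM factors, 3 reads correspond to 0.0934 to 0.142 CPM per sample, a floor that covers counting error only. Wnt genes lie within 100 kb of another at 4 places: Wnt6 and Wnt10a 6.2 kb apart on chromosome 1, Wnt3a and Wnt9a 16.2 kb and Wnt9b and Wnt3 24.3 kb apart on chromosome 11, and Wnt10b and Wnt1 11.7 kb apart on chromosome 15. Of these 8 genes Wnt6, Wnt9a and Wnt3 were tested and did not pass, and the other 5 were not tested.

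Among receptors, Fzd9, a Frizzled of neural progenitors and the hippocampus, fell the most. Its CPM were 17.99, 15.9, 21.2 and 21.5 in controls and 7.40, 6.53, 9.28 and 7.46 in mutants. The highest mutant was below the lowest control by a wide margin, and the log2 fold change was -1.32 (SE 0.14, adjusted p = 3.01e-05). Of the 5 cortical neuron markers 4 were lower in the same samples, Tbr1 being the exception, and their part in the Fzd9 values was not tested. Fzd1, a Frizzled that can signal through β-catenin, rose. Its CPM were 19.1, 20.8, 22.9 and 18.9 in controls and 31.9, 37.2, 28.1 and 27.7 in mutants, replicate 2 being highest, with a log2 fold change of 0.61 (SE 0.12, adjusted p = 0.00150, edgeR). Its promoter window is the one printed above that holds TCAAAG.

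These changes reordered the Frizzled family. Per length, Fzd9 was the most abundant Frizzled in controls, at 8.35 ± 1.17 RPKM and 29.7 ± 3.38% (SD, n = 4) of the summed family level, followed by Fzd1 at 4.87 ± 0.439 and 17.3 ± 0.901%. In mutants Fzd1 was first at 7.44 ± 1.05 and 28.9 ± 3.24%, Fzd2 next at 3.79 ± 0.439, and Fzd9 after it at 3.34 ± 0.505 and 13.04 ± 2.08%. The samples of Fzd2 and Fzd9 overlapped in mutants, and so did each later neighbor down to Fzd10. The summed Frizzled level itself was 26.9 to 30.9 in controls and 23.1 to 26.7 in mutants. Fzd9, its largest part in controls, fell, whereas Fzd1 rose.

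**Figure D3:**
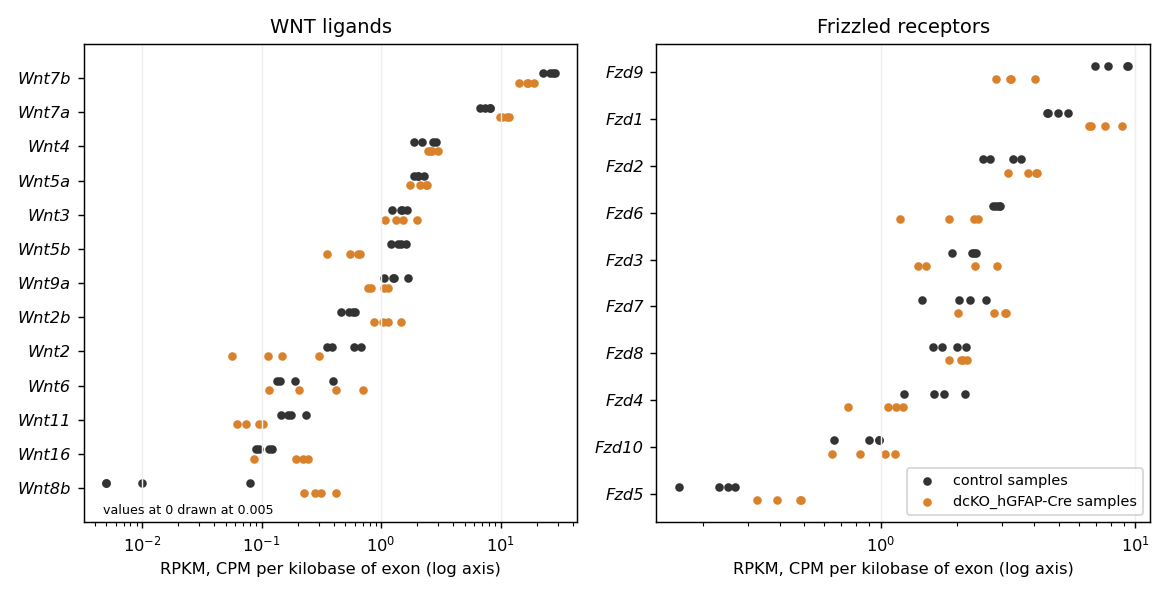
Levels of 13 tested WNT ligands (left) and 10 Frizzled receptors (right) in RPKM (CPM per kilobase of exon), on a log x axis, 1 point per sample (dark, control; orange, dcKO_hGFAP-Cre). Genes are ordered by their control mean. Values of 0 are drawn at 0.005. Wnt7b and Wnt7a lead the ligands in each group, while Fzd9 leads the receptors in controls and Fzd1 in mutants.

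Fzd5, a receptor of the eye field and hypothalamus, was the lowest Frizzled per length and rose. Its CPM were 1.84, 1.73, 1.59 and 1.11 in controls and 3.33, 2.25, 2.70 and 3.35 in mutants, without overlap, and the log2 fold change was 0.90 (SE 0.22, adjusted p = 0.00692). Fzd4, the receptor for Norrin and Wnt ligands on brain endothelium, fell. Its CPM were 10.9, 14.3, 11.9 and 8.26 in controls and 7.14, 8.22, 7.71 and 4.98 in mutants, and the log2 fold change was -0.69 (SE 0.19, adjusted p = 0.0130, edgeR). The highest mutant nearly reached the lowest control, replicate 4. Fzd6, known for its role in planar cell polarity of the skin, was at 13.99, 13.3, 14.2 and 13.6 CPM in controls and 11.6, 8.90, 11.2 and 5.71 CPM in mutants. Its log2 fold change was -0.56 (SE 0.19, adjusted p = 0.0308), a call lost in 7 of 17 alternatives, among them leaving out any single control or mutant replicate 2 (adjusted p up to 0.0718).

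Some endothelial markers moved with Fzd4 and Fzd6. Flt1, Pecam1 and Tek fell (3 of 6), and the rest of the list did not pass the test. The summed level of the 6 markers was 141 to 185 CPM in controls and 76.6 to 144 CPM in mutants, with overlap, and none was at 0. Pecam1 was at 16.1, 14.5, 15.7 and 10.1 CPM in mutant replicates 1 to 4. Replicate 4 was lowest for Pecam1, Flt1, Tek, Fzd4 and Fzd6 alike. This low was not particular to them. Among the mutants replicate 4 was also lowest for Fzd1 (27.7 CPM), Axin2 (41.8 CPM) and Sfrp1 (83.7 CPM). It was highest for Wnt2b (6.19 CPM) and Rspo2 (47.9 CPM). Without replicate 4, the log2 fold change was -0.54 for Fzd4 (adjusted p = 0.0302) and -0.37 for Fzd6 (adjusted p = 0.0345, edgeR). The part of the endothelial transcripts in these falls was not tested.

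The other 8 receptors did not pass the test. The coreceptors Lrp5 and Lrp6 had log2 fold changes of -0.24 (SE 0.11, adjusted p = 0.106) and -0.15 (SE 0.10, adjusted p = 0.226). Lrp5 was at 15.8, 15.97, 19.2 and 15.9 CPM in controls and 15.05, 12.9, 13.8 and 14.97 CPM in mutants, so that its groups did not overlap although the call was missed. Lgr5, an R-spondin receptor and itself a β-catenin target, was at 1.79, 1.18, 0.996 and 1.28 CPM in controls and 1.71, 1.57, 1.40 and 2.11 CPM in mutants, with overlapping groups and a log2 fold change of 0.38 (SE 0.24, adjusted p = 0.226). Fzd2 (0.32), Fzd3 (-0.13), Fzd7 (0.40), Fzd8 (0.13) and Fzd10 (0.04) had log2 fold changes with standard errors between 0.12 and 0.22. Fzd2 and Fzd7 were called higher under scaling by library totals and without mutant replicate 4, and Fzd7 also with the sequencing lane as a block in the fit (adjusted p = 0.0223) and with the replicate number as a block (adjusted p = 0.0327, edgeR).

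The largest fall of any member was in Dkk3 (chr7:112116017-112159057, GRCm38, ENSMUSG00000030772), a divergent Dickkopf that, unlike Dkk1, is not a general blocker of Lrp coreceptors. Its CPM were 189, 181, 183 and 195 in controls and 29.8, 36.99, 77.2 and 35.05 in mutants. Mutant replicate 3 was the highest of its group by far and still lay below every control. The log2 fold change was -2.06 (SE 0.30, adjusted p = 0.00140), a 4.17-fold lower level, and -2.46 without replicate 3. The summed per-length level of the Dickkopf family followed it, at 54.9 to 59.1 in controls and 10.55 to 24.6 RPKM in mutants. Dkk2, which binds Lrp6, went up. Its CPM were 2.07, 3.15, 4.22 and 3.96 in controls and 6.07, 4.36, 5.53 and 5.65 in mutants, where the lowest mutant was just above the highest control, and the log2 fold change was 0.68 (SE 0.21, adjusted p = 0.0244, edgeR). The call for Dkk2 was lost without control replicate 2 (adjusted p = 0.0639), without mutant replicate 1 (adjusted p = 0.0648) and without mutant replicates 1 and 2 together (adjusted p = 0.0784).

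Markers of 2 cell types are set beside Dkk3, of which the radial glia and astrocyte list did not move as a whole. Of the 5 cortical neuron markers 4, among them Neurod6, Emx1 and Slc17a7, were lower in the mutants, and Tbr1 was at 189, 194, 165 and 237 CPM in the mutants against 182 to 193 in controls. Of the radial glia and astrocyte markers, Aqp4 and Gfap were highest in replicate 3 among the mutants. Aqp4 was at 9.92, 9.49, 53.05 and 9.72 CPM in mutant replicates 1 to 4, against 38.8 to 63.7 CPM in controls. Gfap was at 24.2, 32.2, 273 and 26.2 CPM against 79.3 to 89.5 CPM. In replicate 3 Gfap thus lay above the control range and Aqp4 within it, while Dkk3 lay below every control. As a list these markers had 0 of 6 called by edgeR (1 at an unadjusted p under 0.05, Aldh1l1; 0 of 4 tested by DESeq2 and 2 lower by limma-voom), a summed level of 1459 to 1488 CPM in controls and 1027 to 2343 CPM in mutants, and none at 0. Their part in the Dkk3 values was not tested.

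**Figure D4:**
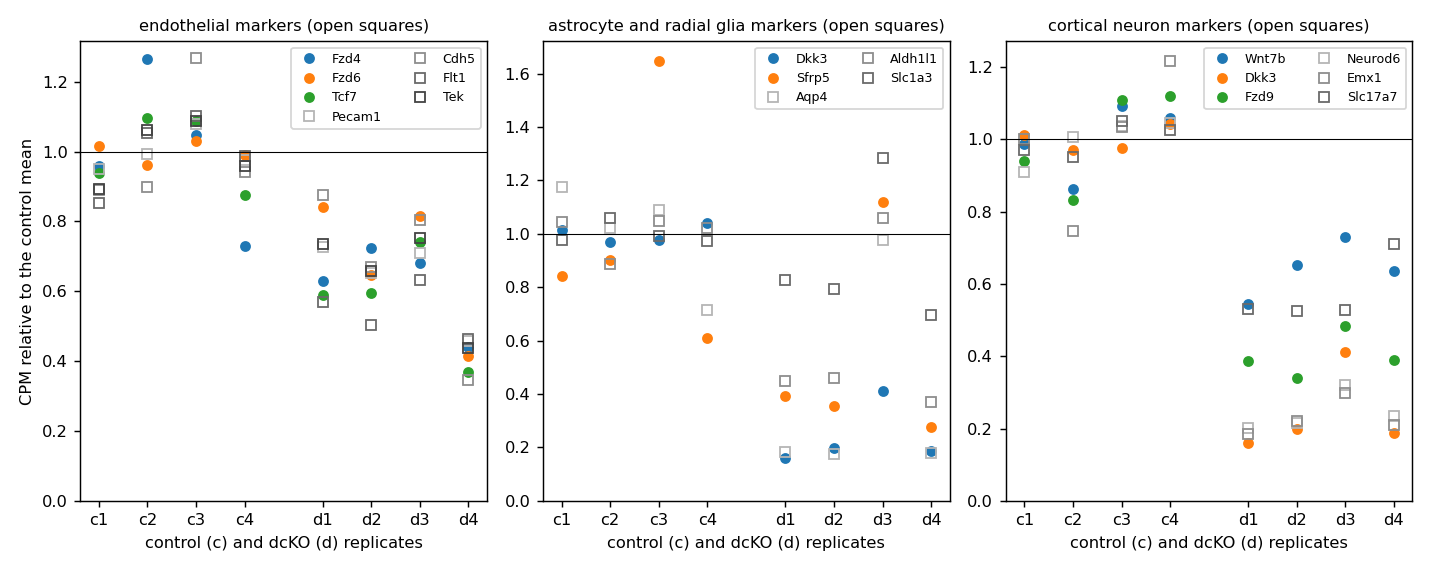
Members (filled circles) and cell type markers (open squares) in each sample as CPM divided by the control mean of that gene, from 0, for control (c1 to c4) and dcKO_hGFAP-Cre (d1 to d4) replicates. Only part of each marker list is plotted. Left, Fzd4, Fzd6 and Tcf7 and the endothelial markers Pecam1, Cdh5, Flt1 and Tek are lowest in d4. Some members not drawn, such as Fzd1 and Sfrp1, are also lowest among the mutants in d4. Middle, Dkk3 and Sfrp5 and the astrocyte and radial glia markers Aqp4, Aldh1l1 and Slc1a3 are highest among the mutants in d3. Right, Wnt7b, Dkk3 and Fzd9 and the cortical neuron markers Neurod6, Emx1 and Slc17a7 are below the control mean in all 4 mutants. Tbr1 is among the markers left out.

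Sfrp2, a secreted protein that binds WNT ligands, and Rspo2, an R-spondin that strengthens WNT signals by protecting their receptors, rose and kept the call under all 17 alternatives. Sfrp2 was at 10.6, 10.3, 11.99 and 12.01 CPM in controls and 17.7, 16.7, 20.2 and 17.7 CPM in mutants, all 4 mutants being higher, with a log2 fold change of 0.69 (SE 0.11, adjusted p = 5.05e-04). Rspo2 was at 25.3, 26.1, 29.4 and 24.3 CPM in controls and 40.8, 46.1, 33.4 and 47.9 CPM in mutants, lowest in replicate 3 of the mutants but still above every control. Its log2 fold change was 0.68 (SE 0.12, adjusted p = 8.79e-04, edgeR). Sfrp1, another Sfrp, at 102 to 112 CPM in controls and 83.7 to 101 CPM in mutants, passed the test with a small fall of 0.22 on the log2 scale (SE 0.08, adjusted p = 0.0433) that 11 of 17 alternative analyses did not call. The summed R-spondin level per length was 6.97 to 8.53 in controls and 9.05 to 11.6 in mutants, and Rspo2 made up 68.2% of it in controls. The summed level of the Sfrp family overlapped (29.4 to 32.6 and 27.9 to 31.6).

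The other tested modulators did not pass. Notum, an enzyme that inactivates WNT ligands and a feedback target of the pathway, was at -0.54 on the log2 fold change scale (SE 0.26, adjusted p = 0.128). It was called lower without mutant replicate 3 (adjusted p = 0.0147, edgeR). Rspo1, Rspo3, Sfrp4 and Sfrp5 had log2 fold changes of 0.49, -0.32, 0.54 and -0.90, with standard errors between 0.16 and 0.45. Sfrp4 was called higher under scaling by library totals. Sfrp5 was called lower with a lane block (adjusted p = 0.0103), with a replicate block (adjusted p = 0.0159) and without mutant replicate 3 (adjusted p = 0.00623, edgeR). Rspo4, which was not tested, had 1 read in each control and 3, 4, 5 and 6 reads in the mutants. These counts do not overlap but lie near the floor of 3 reads, and no fold is given.

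Inside the cell, Axin2 rose while β-catenin mRNA did not pass the test. Axin2 (chr11:108920349-108950783, GRCm38, ENSMUSG00000000142), a scaffold of the destruction complex whose transcription β-catenin induces, was at 30.8, 32.3, 29.5 and 25.03 CPM in controls and 47.03, 47.8, 42.3 and 41.8 CPM in mutants. The lowest mutant exceeded the highest control, and the log2 fold change was 0.61 (SE 0.10, adjusted p = 5.40e-04), or 1.52-fold. Ctnnb1 was at 915, 908, 916 and 921 CPM in controls and 932, 872, 933 and 906 CPM in mutants, with overlapping groups. Its log2 fold change was -0.01 (SE 0.06, adjusted p = 0.938, edgeR), and its sign turned under scaling by library totals (0.11). The paralog Axin1, which is not a feedback target, was at 47.8 to 59.9 CPM in controls and 51.5 to 61.4 in mutants (adjusted p = 0.992).

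Apc, the other large scaffold of that complex, was at 916, 1041, 869 and 869.6 CPM in controls and 712, 628, 698 and 836 CPM in mutants. It fell by 0.36 on the log2 scale (SE 0.09, adjusted p = 0.00916), a call lost under scaling by library totals (adjusted p = 0.0540) and without mutant replicates 1 and 2 together (adjusted p = 0.137). Nkd1, a feedback inhibitor that binds Dishevelled, was at 23.6 to 29.4 CPM in controls and 15.3 to 22.8 CPM in mutants. It fell by 0.43 (SE 0.13, adjusted p = 0.0214, edgeR), and 4 of 17 alternatives did not call it, among them those without control replicate 3 and without control replicate 4 (adjusted p = 0.0692 and 0.0578). Axin2 and Nkd1, both used as readouts of β-catenin activity, thus had opposite signs in the same tissue.

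Of the nuclear factors, Tcf7 fell and Lef1 and Tcf7l1 did not pass the test. Tcf7 was at 8.56, 10.01, 9.93 and 7.98 CPM in controls and 5.39, 5.42, 6.75 and 3.35 CPM in mutants. All mutants were below the controls and replicate 4 was lowest, with a log2 fold change of -0.80 (SE 0.19, adjusted p = 0.00607). Among the mutants replicate 4 was also lowest for the endothelial markers Pecam1, Flt1 and Tek, and for members such as Fzd1 and Sfrp1. Without replicate 4 the log2 fold change of Tcf7 was -0.62 (adjusted p = 0.00751, edgeR). The part of the endothelial transcripts was not tested. Lef1, which marks the developing hippocampus and is induced by WNT signals, was at 2.62, 2.66, 4.88 and 3.68 CPM in controls and 3.98, 5.89, 5.22 and 3.62 CPM in mutants. Its groups overlapped, at a log2 fold change of 0.42 (SE 0.23, adjusted p = 0.171). Tcf7l1, mainly a repressor, was at 5.57 to 8.15 CPM in controls and 5.71 to 8.05 CPM in mutants (adjusted p = 0.870).

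Of 60 other WNT pathway genes, listed with earlier results of these data known, 59 were tested: 9 were higher and 23 lower (54.2% called, beside 37.5% of all genes), with a median log2 fold change of -0.20 (all genes 0.02). Under library totals 11 were higher and 15 lower. By group, 6 of 9 planar cell polarity genes fell and 0 rose, 8 of 14 cytoplasmic components fell and 1 rose, and 4 of 8 tested inhibitors fell and 2 rose. Under library totals the 14 cytoplasmic components gave 3 lower and 3 higher, whereas planar cell polarity still gave 5 lower and 0 higher.

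Genes that β-catenin commonly induces did not move together. Of 8 on the list, Rnf43, Nkd2, Myc, Apcdd1 and Tnfrsf19 fell, Ccnd1 and Sp5 rose, and Znrf3 did not pass (log2 fold change -0.19, adjusted p = 0.201). Ccnd1, cyclin D1, changed by 0.71 (SE 0.10, adjusted p = 2.10e-04, edgeR) and Sp5 by 0.74 (SE 0.24, adjusted p = 0.0273). Rnf43, the membrane ubiquitin ligase that removes Frizzled receptors and is opposed by R-spondins, was at 2.62, 2.27, 2.62 and 2.50 CPM in controls and 1.20, 0.636, 1.23 and 0.815 CPM in mutants, a log2 fold change of -1.37 (SE 0.23, adjusted p = 7.92e-04). Axin2, a member that rose, is not on this list.

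The other 5 pathway genes past 1 on the log2 scale were Wls, Tle3, Frzb, Wif1 and Kremen2. Wls, which carries WNT ligands to the cell surface, was at 18.5, 19.9, 20.7 and 16.8 CPM in controls and 51.9, 45.3, 37.4 and 34.6 CPM in mutants (1.16, SE 0.13, adjusted p = 4.44e-05). Tle3, a Groucho corepressor that binds Tcf factors, was at 143, 134, 175 and 161 CPM in controls and 51.2, 51.01, 52.7 and 60.3 CPM in mutants (-1.51, SE 0.10, adjusted p = 1.08e-06). Neither gene's groups came near each other. Frzb (Sfrp3) was at 6.95 to 10.8 CPM in controls and 2.35 to 3.72 CPM in mutants (-1.62, SE 0.19, adjusted p = 5.62e-05, edgeR). Wif1, a secreted protein that binds WNT ligands, was at 0.592 to 0.896 CPM in controls and 1.501 to 2.88 CPM in mutants (1.54, SE 0.27, adjusted p = 9.07e-04). Kremen2, a Dickkopf coreceptor, was at 0.312 to 0.531 CPM in controls and 0.580 to 1.24 CPM in mutants (1.22, SE 0.32, adjusted p = 0.0110). Each of these 5 genes had all mutants on the same side of the controls.

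Some members share exon sequence with other annotated genes, and the strand setting of the counting is not given in the sources used here. Wnt7b overlaps AU022754 on the opposite strand, which had 370 counts over the 8 samples, and Ctnnb1 overlaps Ulk4 on the opposite strand with 1463. The overlapping partners of Axin2, Sfrp2, Fzd5 and Fzd6 had 22, 92, 75 and 12 counts. Reads of such pairs cannot be told apart without strand.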

How the data were processed

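The authors deposited raw counts per gene for each sample. By the study's methods and labels, libraries were made from cortex RNA with the TruSeq v2 kit, and reads were aligned to mm10 and counted with featureCounts. The aligner, annotation, strand setting and treatment of multi-mapping reads are not given in the sources used here. Of 48709 gene identifiers 48349 were matched to GENCODE M21 (GRCm38), and 30608 genes had at least 1 count. The main test, fitted on the whole table without a block, was edgeR 4.0.16 (R 4.3.3) with TMM scaling, robust quasi-likelihood, the default filter (minimum count 10) and Benjamini-Hochberg adjustment over 16525 genes, with a threshold of 0.05. CPM are TMM-scaled. Per-length levels divide them by merged exon length. DESeq2 1.42.0, which the study used, limma 3.58.1 (voom), other scalings, filters, blocks and samples left out were alternatives. The fit was tested on simulated data. Changed genes that it missed there were mostly at low levels, so a low member that did not pass may still differ. A first check on the number of genes recovered failed and was replaced by other checks after that run. The members and lists were chosen with earlier results of these data known. Values in every sample are given for members with an adjusted p under 0.05 and a log2 fold change of 0.5 or more in size, and for Ctnnb1, Axin2, Lef1 and Lgr5, of other pathway genes those past 1 by name, and Lrp5 was added after its values were seen. Samples ran on lanes 5 (replicates 1 and 2), 6 and 7, each with both groups, and the 21 called members kept their direction in each of the 3 lanes. The labels give no litter, so p-values measure the spread between these samples. No pair of replicates agreed within sampling noise (chi-square per degree of freedom 9.35 to 51.4). Promoter windows came from RefSeq (GRCm38.p6). Some marker genes are not reported here.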

Additional observations from a re-analysis of the deposited data

Results flagged for a closer look

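In 88 groups of 4 samples (44 tested members in 2 conditions), 4 had a sample far from the other 3 by Dixon's criterion, about as many as the 4.4 that chance gives. Wnt8b in control replicate 1 was at 0.276 CPM against 0, 0 and 0.0347 in the other controls. Lrp5 in control replicate 3 was at 19.2 CPM, with the next control at 15.97. Dkk3 in mutant replicate 3 was at 77.2 CPM, with the next mutant at 36.99. Sfrp5 in the same replicate was at 1.47 CPM, with the next mutant at 0.513.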

How the results depend on the processing

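Over 17 alternatives, 8 of the 9 members that rose kept the call in each one run, Dkk2 being the exception, and 6 of the 12 that fell did so (Dkk3, Fzd4, Fzd9, Tcf7, Wnt5b and Wnt7b). None of the 21 changed sign. Of the 23 members not called, 7 were called under at least 1 alternative and 7 changed sign. Leaving out 1 sample gave 8 to 11 members higher and 9 to 13 lower, 2199 to 3308 of all genes higher and 2375 to 3273 lower, and 6 to 10 other pathway genes higher and 15 to 23 lower, the 15 being without control replicate 3. Library totals gave 15 other pathway genes lower. Without mutant replicates 1 and 2 together the counts were 7 members lower, 1388 of all genes higher and 1581 lower, and 4 other pathway genes higher and 13 lower, from a fit with fewer samples.

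The sign turned for Wnt3 under limma-voom (-0.00414) and for Axin1 (0.12), Ctnnb1 (0.11) and Tcf7l1 (0.0832) under library totals. With at least 10 counts in every sample it turned for Axin1 (0.0148) and Ctnnb1 (0.00932). Without mutant replicates 1 and 2 it turned for Ctnnb1 (0.00610), Wnt3 (-0.16), Wnt5a (-0.0793) and Fzd10 (-0.0731). Leaving out single samples gave -0.0721 to 0.0435 for Axin1, -0.024 to 0.00897 for Ctnnb1, -0.0847 to 0.20 for Fzd10, -0.33 to 0.00687 for Fzd3, -0.15 to 0.0681 for Tcf7l1 and -0.16 to 0.15 for Wnt3. The cause of these turns was not tested.

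Same-numbered samples did not all deviate together (correlations 0.171, -0.0679, 0.213 and -0.0238), so the numbers were not read as pairs, although in both groups numbers 1 and 2 were on lane 5, 3 on lane 6 and 4 on lane 7. With a replicate block 10 members were higher and 12 lower, with Wnt3 at -8.20e-04. With a lane block they were 10 and 13, the differences being Fzd7 and Sfrp5 gained with both blocks and Sfrp1 lost with the replicate block. Low counts limit Wnt8b, Wnt2, Wnt11, Wnt16, Wnt6 and Kremen2, which could not be tested at 10 counts in every sample, and the 9 members without a test.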

Other observations

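Among the planar cell polarity genes, which orient cells within a sheet and act downstream of some Frizzled receptors, 6 of 9 fell, beside 18.9% of all genes. Of 5 cortical excitatory neuron markers 4 fell in the same mutants (1106 to 1193 and 591 to 732 CPM summed), and their part was not tested. The other pathway genes named here, and Tcf7l2, Tle1 and Pygo1, were chosen after their values were seen. Celsr2, a cadherin, was at 264, 244, 298 and 282 CPM in controls and 131, 125, 124 and 175 CPM in mutants, with a log2 fold change of -0.97 (SE 0.11, adjusted p = 5.77e-05, edgeR). Prickle1, a cytoplasmic partner of that pathway, was at 72.9, 70.6, 70.1 and 72.1 CPM and 38.3, 32.5, 40.2 and 40.6 CPM (-0.91, SE 0.09, adjusted p = 1.13e-05). In these 2 genes every mutant lay below every control. Vangl1, Prickle2, Daam1 and Vangl2 had log2 fold changes of -0.57, -0.49, -0.45 and -0.27. Celsr1 (0.12), Celsr3 (0.16) and Daam2 (-0.06) did not pass the test.

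The nuclear partners of the pathway held 3 genes that rose and 1 that fell of 10, a share near the 37.5% of all genes called. Tcf7l2, a Tcf factor prominent in the thalamus, was at 4.42, 3.94, 4.12 and 3.51 CPM in controls and 6.07, 5.30, 6.21 and 6.58 CPM in mutants (0.60, SE 0.15, adjusted p = 0.00678, edgeR), while Tcf7 fell. The thalamic markers Gbx2 and Lhx9 rose and Rora and Prkcd fell in the same samples, and their part was not tested. Tle1 (0.40) and Pygo1 (0.36) also rose, and Tle3, a relative of Tle1, fell (-1.51).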
